A study of Rattus norvegicus with 15 samples.

Results

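The effect of a maternal high-fat diet (HFD) on embryonic rat cortex over E16.5 and E18.5 was estimated as 1 coefficient per gene. It averages over both days and does not by itself show an effect on each. The data were RNA sequencing of 9 libraries out of the 15 in the series. The 4 HFD libraries were E16.5 replicates 1 and 2 and E18.5 replicates 1 and 2. The 5 control libraries were E16.5 replicates 1, 2 and 3 and E18.5 replicates 2 and 3. Stage entered the fit as a blocking factor, so each HFD library was set against controls of its own day. The 5 E14.5 libraries stayed out of this coefficient and served only for contrast, and E18.5 control replicate 1 was left out by the rule that defined the comparison. All embryos, control and HFD, were Wistar rats with no engineered allele or injected agent. Control mothers ate normal chow, and HFD mothers ate a commercial diet with 60% of its calories from fat before and during gestation. Both groups were mated with healthy males once the HFD females were obese. According to the methods, the frontal cortices of all embryos of a litter were pooled and each pool stood as 1 biological replicate. By this description a library averages over a litter and does not resolve single embryos. Y-linked transcripts, given below, were nearly absent from some libraries. The diet acted on the mother before and during pregnancy, and fetal, placental and maternal routes cannot be told apart in this design.

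Between these days the rat cortex passes from the production of deep-layer to upper-layer neurons, while axons, dendrites and the first synapses form and the pool of dividing radial glia shrinks. The neural tissue is wrapped by the meninges, fibroblast layers of head mesenchyme that lay down collagens, laminins and small proteoglycans and release retinoic acid, and it is entered by blood vessels, pericytes and macrophages. A dissected cortex therefore holds neural RNA together with RNA of these coverings and vessels. In bulk samples, fewer cells of a type and less RNA per cell cannot be told apart.

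The 9 libraries held 5598195 to 9529978 counts. The 22 tested markers of cortical excitatory neurons, which identify the tissue, were all counted, and their summed level was 2544 to 3590 CPM (counts per 1000000) in E16.5 controls, 3050 to 3127 in E16.5 HFD, 3331 to 3591 in E18.5 controls and 3165 to 3169 in E18.5 HFD libraries. E18.5 HFD replicate 1 stood apart in composition: its 10 most counted genes took 26.5% of its counts, and its TMM normalization factor was the lowest at 0.848. Values below are CPM over TMM-adjusted library sizes unless stated otherwise, and log2 fold changes are HFD against control from edgeR. The standard error (SE) was derived as the absolute log2 fold change over the square root of edgeR's quasi-likelihood F statistic.

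Across both later stages no single gene passed the adjusted threshold. Of 14709 genes tested with edgeR's quasi-likelihood test, 0 had a Benjamini-Hochberg adjusted p under 0.05, and 741 (5.04%) had an unadjusted p under 0.05, namely 291 (1.98%) with more counts in HFD and 450 (3.06%) with fewer. limma-voom also called 0, and its unadjusted p passed 0.05 upward for 323 genes (2.2%) and downward for 440 (2.99%). DESeq2, the tool of the study, called 13 genes, 1 higher (0.0068%) and 12 lower (0.0816%). Groups that did not overlap within either stage were found for 245 genes higher in HFD (1.67%) and 341 lower (2.32%). Over all genes the E16.5 and E18.5 fold changes, which rest on separate libraries, had a Pearson r of -0.023, and 56.7% of genes had the same sign at both days. Genes are not independent replicates, so this r describes the 2 profiles and carries no p. A few genes with extreme fold changes can set a Pearson r. The 8 tested sex chromosome genes, for example, had medians of -0.38 at E16.5 and 1.92 at E18.5. What set the r here was not tested.

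Genes of collagens, small proteoglycans and a laminin were among those with fewer counts in HFD, beside others of different kinds. The 12 lower genes that DESeq2 called were Lama2, Dcn, Lum, Col3a1, Col15a1, Pdgfra, Adamts12, Mrc1, Tuba1c, Znrd1as1 and the loci listed as NEWGENE_621351 and AABR07068316.1, which carry no annotation here, at DESeq2 adjusted p from 8.12e-05 to 0.0475. Lama2, the laminin alpha 2 chain of basement membranes, was at 44.3, 44.7 and 35.5 CPM in the E16.5 controls against 22.0 and 27.6 in E16.5 HFD, and at 38.3 and 48.1 in the E18.5 controls against 27.2 and 30.0 in E18.5 HFD. Every HFD library was below every control of its day. Its log2 fold change was -0.67 (SE 0.11, edgeR adjusted p = 0.202), with -0.74 at E16.5 and -0.59 at E18.5.

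Dcn encodes decorin, a small proteoglycan that binds collagen fibrils. It was at 16.05, 15.3 and 11.3 CPM in E16.5 controls, 4.83 and 7.61 in E16.5 HFD, 13.2 and 17.5 in E18.5 controls and 10.99 and 9.05 in E18.5 HFD. The groups did not overlap on either day, and the log2 fold change was -0.91 (SE 0.19, edgeR adjusted p = 0.514). Lum, the related proteoglycan lumican, had a log2 fold change of -1.05 (SE 0.26), with 15.5 to 21.7 CPM in E16.5 controls against 5.32 and 13.2, and 10.3 and 17.4 in E18.5 controls against 7.10 and 6.79. The fibrillar collagen gene Col3a1 was at 516, 456 and 310 CPM in E16.5 controls, 215 and 226 in E16.5 HFD, 410 and 264 in E18.5 controls and 201 and 225 in E18.5 HFD. Controls differed among themselves by up to 206 CPM at E16.5, yet the lowest control exceeded the highest HFD library on each day. Its log2 fold change was -0.82 (SE 0.18, edgeR adjusted p = 0.564). Col15a1, a collagen of the basement membrane zone, was lower by a log2 fold change of -1.12 at E16.5 and -0.39 at E18.5.

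Pdgfra encodes a growth factor receptor of mesenchymal cells and of oligodendrocyte precursors. Its levels were 48.1, 48.8 and 32.6 CPM in E16.5 controls, 22.0 and 29.7 in E16.5 HFD, 68.8 and 64.1 in E18.5 controls and 45.6 and 49.3 in E18.5 HFD. HFD libraries were lower on both days without overlap, with a log2 fold change of -0.61 (SE 0.13, edgeR adjusted p = 0.519). Of 13 genes of the oligodendrocyte lineage 8 were lower and 5 higher, with log2 fold changes from -0.61 to 0.76 and a median of -0.03. Olig2, a transcription factor of that lineage, had one of -0.04 (SE 0.15), whose sign changed with single libraries left out. Which cells gave the Pdgfra counts was not tested. Aldh1a2, the retinoic acid synthesizing enzyme of the meninges, was at 7.24 to 9.15 CPM in E16.5 controls against 5.201 and 5.45, and at 13.0 and 11.6 in E18.5 controls against 8.28 and 8.83. Gjb2, a connexin of meningeal cells, had a log2 fold change of -0.87 (SE 0.19), and Mmp2, a gelatinase secreted by fibroblasts, one of -0.53 (SE 0.11). Neither gene's groups overlapped on either day. Anxa2, a membrane-binding annexin, was at 27.6 to 32.1 CPM in E16.5 controls and 19.6 and 21.9 in E16.5 HFD, and at 33.8 and 32.8 in E18.5 controls and 24.8 and 25.9 in E18.5 HFD.

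**Figure D1:**
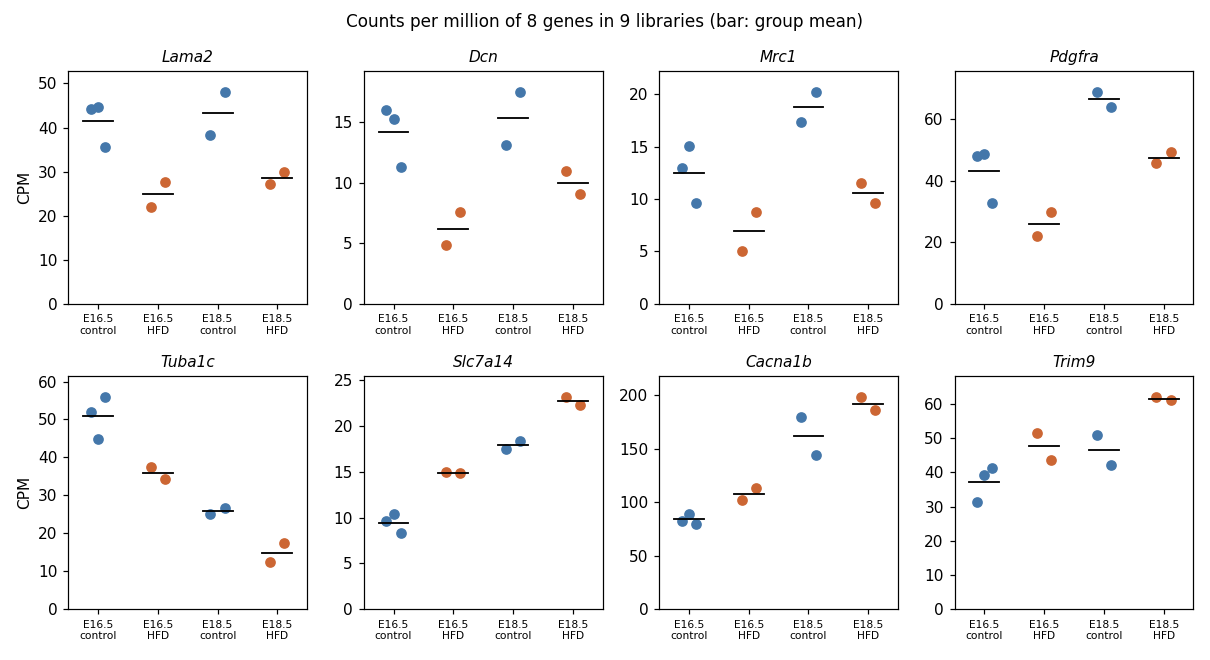
CPM of 8 genes in the 9 libraries, with 1 point per library, the bar at the group mean, controls in blue and HFD in orange. Lama2, Dcn, Mrc1, Pdgfra and Tuba1c were lower and Slc7a14, Cacna1b and Trim9 higher in every HFD library than in every control of the same day. The rule for naming the top genes of each direction required this lack of overlap.

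Counted as a list, 20 of the 22 tested genes of head mesenchyme and meninges had a lower fitted level in HFD, all but Prrx1 and Zic1, against 50.8% of all genes tested. Of these, 14 were lower at an unadjusted p under 0.05 (3.06% of all genes) and 9 had non-overlapping groups on both days (2.32% of all genes). None passed the edgeR adjusted threshold, and 4 were among the DESeq2 calls (Dcn, Lum, Col3a1 and Pdgfra). The median log2 fold change of the list was -0.57, with -0.76 at E16.5 and -0.47 at E18.5, beside -0.002 for all genes tested. Its mean level per library, on the log2 CPM scale, was 4.07, 4.23 and 3.99 in E16.5 controls, 3.28 and 3.51 in E16.5 HFD, 4.10 and 4.10 in E18.5 controls and 3.54 and 3.77 in E18.5 HFD. No member was at 0, and the summed level was 1338 to 1910 CPM in E16.5 controls, 993 to 1082 in E16.5 HFD, 1422 to 1886 in E18.5 controls and 791 to 1135 in E18.5 HFD, over library totals without TMM. With E18.5 control replicate 1 added back the median moved to -1.05, and it lay between -0.65 and -0.49 when each library was left out in turn.

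The extracellular matrix list was mostly lower, with a few exceptions. Of its 25 tested genes 18 were lower (50.8% of all genes), and 13 of these had an unadjusted p under 0.05 (3.06% of all genes). They were led by Lama2, Mmp2 and the nidogen gene Nid2 (log2 fold change -0.56, SE 0.14), and the list median was -0.24. The 2 members higher at that threshold were Tnc and Spock1, matrix genes that neural cells express. The within-stage medians were -0.31 at E16.5 and -0.08 at E18.5, and the median was -0.38 with E18.5 control replicate 1 added and 0.094 with the mesenchyme score as a covariate. That score did not overlap between diets on either day, so a fit with it as a covariate, here and below, separates diet from it poorly.

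**Figure D2:**
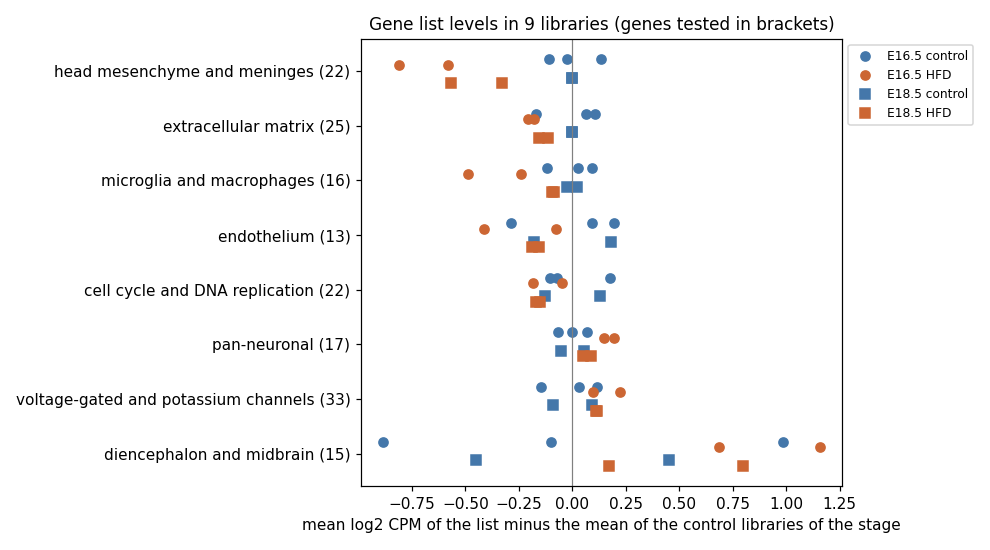
Mean log2 CPM of 8 gene lists in each of the 9 libraries, less the mean of the controls of the same day, with circles for E16.5, squares for E18.5, controls in blue and HFD in orange. For head mesenchyme and meninges all 4 HFD points lay left of all 5 control points, whereas the diencephalon and midbrain points of controls and HFD overlapped.

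The promoters of the leading lower and higher genes are shown so that genes from the opposite ends of the ranking can be set side by side. They are the 250 bases upstream of the start that RefSeq annotates on build GRCr8, read 5' to 3' on the gene's strand, and GRCr8 is not the build of the counts. Pdgfra lies at chr14:33408517-33408766 on the minus strand, Lama2 at chr1:19491896-19492145 on the plus strand, Slc7a14 at chr2:113993531-113993780 on the plus strand and Cacna1b at chr3:27944286-27944535 on the minus strand. Capitals mark the TATA box TATAAA, the GC box GGGCGG and the E box CANNTG on either strand, where overlapping matches merge into 1 run of capitals.
Pdgfra: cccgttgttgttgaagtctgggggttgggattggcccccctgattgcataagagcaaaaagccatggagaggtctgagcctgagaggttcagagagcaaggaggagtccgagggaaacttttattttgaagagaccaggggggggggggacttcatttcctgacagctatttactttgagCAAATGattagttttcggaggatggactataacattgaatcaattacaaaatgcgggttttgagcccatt
Lama2: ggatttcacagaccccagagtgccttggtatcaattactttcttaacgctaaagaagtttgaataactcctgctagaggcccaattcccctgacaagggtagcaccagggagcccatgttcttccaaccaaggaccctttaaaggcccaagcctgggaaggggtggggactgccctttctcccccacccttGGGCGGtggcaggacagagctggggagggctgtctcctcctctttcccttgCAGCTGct
Slc7a14: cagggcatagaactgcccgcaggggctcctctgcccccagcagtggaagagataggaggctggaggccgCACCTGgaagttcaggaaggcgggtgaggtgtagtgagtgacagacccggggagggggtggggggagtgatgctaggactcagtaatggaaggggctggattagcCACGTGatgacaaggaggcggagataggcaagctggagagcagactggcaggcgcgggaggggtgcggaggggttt
Cacna1b: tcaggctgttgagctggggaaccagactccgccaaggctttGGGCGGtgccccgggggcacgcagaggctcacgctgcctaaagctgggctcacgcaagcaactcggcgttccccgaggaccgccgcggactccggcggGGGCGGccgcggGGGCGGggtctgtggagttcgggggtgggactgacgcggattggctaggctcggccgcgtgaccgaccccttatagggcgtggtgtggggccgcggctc
Pdgfra carried 1 E box, Lama2 1 GC box and 1 E box, Slc7a14 2 E boxes and Cacna1b 3 GC boxes. G and C made up 47.2% of the Pdgfra stretch, 55.6% for Lama2, 63.2% for Slc7a14 and 72% for Cacna1b. Of the 27457 promoters in the table, 1 per symbol, 13.1% held the TATA box, 32.4% the GC box and 65.2% the E box. For the 14 of 22 mesenchyme and meninges genes with an entry these shares were 21.4%, 50% and 64.3%, and for the 20 of 33 ion channel genes with an entry 0%, 65% and 50%. These are counts of letters and not of occupied sites.

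Genes of vessels, macrophages and blood were mostly on the lower side too, by smaller amounts. Of 13 endothelial genes 12 were lower (50.8% of all genes), with a list median of -0.20, and 2 at an unadjusted p under 0.05 (3.06% of all genes). These were Cdh5, the cadherin of endothelial junctions (log2 fold change -0.39, SE 0.12), and Kdr, a receptor for VEGF (-0.38, SE 0.14). Of 11 genes of pericytes and smooth muscle 9 were lower and 4 passed the unadjusted threshold (50.8% and 3.06% of all genes). Acta2, smooth muscle actin, was at 8.67, 9.02 and 6.21 CPM in E16.5 controls, 3.96 and 4.31 in E16.5 HFD, 8.21 and 7.05 in E18.5 controls and 5.58 and 5.09 in E18.5 HFD, again without overlap. The endothelial score overlapped between diets on both days, whereas the scores of pericytes and smooth muscle and of microglia and macrophages did not overlap on either. With the head mesenchyme and meninges score as a covariate the endothelial median turned to 0.33 and that of microglia and macrophages to 0.30. Since that score runs nearly along with diet, what mesenchyme content contributed to these lists cannot be told from this fit. With E18.5 control replicate 1 added, the pericyte and smooth muscle median went from -0.19 to -0.39.

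Of 16 microglia and macrophage genes 14 were lower (50.8% of all genes), with a median of -0.27. Mrc1 and Csf1r had an unadjusted p under 0.05 (3.06% of all genes were lower at that threshold). Mrc1 encodes the mannose receptor that marks macrophages of the brain's borders. It was at 12.9, 15.0 and 9.62 CPM in E16.5 controls, 5.08 and 8.75 in E16.5 HFD, 17.3 and 20.2 in E18.5 controls and 11.5 and 9.62 in E18.5 HFD, and its log2 fold change was -0.84 (SE 0.18, edgeR adjusted p = 0.514). Csf1r, the growth factor receptor that microglia depend on, had overlapping groups and a log2 fold change of -0.34 (SE 0.14). Without E16.5 HFD replicate 1 the list median was -0.15. Red blood cell genes had 11 of 13 lower, 1 of them at an unadjusted p under 0.05 (50.8% and 3.06% of all genes). The summed blood level, on library totals, was 1125 and 2091 CPM in E16.5 HFD against 2304 to 3360 in E16.5 controls, whereas at E18.5 it was 2107 to 2932 in HFD and 1294 to 2844 in controls, which overlapped. The blood median lay between -0.63 without E18.5 control replicate 2 and -0.14 without E16.5 HFD replicate 2.

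A pair of genes outside these lists ranked near the top on the lower side. Tuba1c, an alpha-tubulin gene, was at 52.0, 44.8 and 55.9 CPM in E16.5 controls, 37.4 and 34.2 in E16.5 HFD, 25.02 and 26.6 in E18.5 controls and 12.3 and 17.4 in E18.5 HFD. Its level was lower with diet on each day and lower at E18.5 than at E16.5 in either diet, and the diet log2 fold change was -0.62 (SE 0.11, edgeR adjusted p = 0.371). Alpha-tubulin genes are close paralogs, so reads may be divided among them, which was not tested. Znrd1as1 had a log2 fold change of -1.06 (SE 0.20). Its name marks an antisense transcript, and no source states whether counting used strand, so its reads and those of its partner cannot be told apart.

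The genes ranked highest among those with more counts in HFD had log2 fold changes of 0.26 to 0.51, apart from loci of uncertain identity that are given at the end. Slc7a14, a solute carrier of the cationic amino acid transporter family, was at 9.59, 10.4 and 8.28 CPM in E16.5 controls, 15.0 and 14.8 in E16.5 HFD, 17.5 and 18.3 in E18.5 controls and 23.2 and 22.3 in E18.5 HFD. Groups did not overlap on either day and the log2 fold change was 0.51 (SE 0.11, edgeR adjusted p = 0.519). Cacna1b, the pore of the N-type calcium channel that triggers transmitter release, was at 82.4, 89.3 and 79.9 CPM in E16.5 controls against 102 and 114, and at 180 and 144 in E18.5 controls against 198 and 186. Its log2 fold change was 0.31 (SE 0.08, edgeR adjusted p = 0.639). Trim9, a ubiquitin ligase of axon branching, had 0.37 (SE 0.10), the netrin receptor gene Unc5a 0.33 (SE 0.09), the receptor phosphatase gene Ptprt 0.30 (SE 0.08), and the neuronal pentraxin receptor gene Nptxr 0.29 (SE 0.08). Disp2, of the Dispatched family, had 0.34 (SE 0.09) and Jup, which encodes the junction protein plakoglobin, 0.26 (SE 0.07). In all 6 genes the HFD libraries were above the controls of their day. The rule that chose the top genes of each direction required this, so it is not a separate result.

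Of 17 pan-neuronal genes 17 had a fitted log2 fold change above 0, against 49.2% of all genes, with a median of 0.12. Of these, 1 had an unadjusted p under 0.05 (1.98% of all genes are higher at that threshold). The pan-neuronal score was 7.29, 7.42 and 7.35 in E16.5 controls, 7.50 and 7.55 in E16.5 HFD, 8.06 and 7.95 in E18.5 controls and 8.05 and 8.09 in E18.5 HFD, on the log2 CPM scale. The difference between the days in controls was thus larger than the difference with diet.

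Over all genes 49.2% were higher, and 1.98% were higher at an unadjusted p under 0.05. Of 33 genes for voltage-gated and potassium channels 30 were higher (median 0.16), 5 at an unadjusted p under 0.05. Of 32 synaptic vesicle and scaffold genes 28 were higher (median 0.14), with 4 at that threshold, and of 31 glutamate and GABA receptor genes 27 (median 0.12), with 3. Syn1, a synaptic vesicle protein gene, was at 68.2, 60.5 and 57.4 CPM in E16.5 controls and 86.9 and 62.0 in E16.5 HFD, which overlapped, and at 109 and 98.0 in E18.5 controls and 135 and 133 in E18.5 HFD, which did not. Gabbr2, a subunit of the GABA-B receptor, had a log2 fold change of 0.42 (SE 0.12), Grm2, a metabotropic glutamate receptor gene, 0.39 (SE 0.13), and Cacna1e, the pore of the R-type calcium channel, 0.23 (SE 0.08). The 22 cortical excitatory neuron markers did not share this direction: 13 were higher and 9 lower, none of them with an unadjusted p under 0.05, and the median was 0.005. Radial glia genes had a median of 0.02, which was -0.16 with the mesenchyme score as a covariate. With E18.5 control replicate 1 added the medians were higher, at 0.27 for pan-neuronal, 0.32 for synaptic, 0.34 for receptor, 0.28 for channel and 0.18 for cortical excitatory neuron genes. With the mesenchyme covariate they were 0.23 for pan-neuronal, 0.39 for receptor and 0.31 for channel genes.

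A list for diencephalon and midbrain, regions next to the dissected cortex, had 14 of 15 tested genes higher (49.2% of all genes) and the largest positive median of the lists described here, 0.58. Its score differed more between controls than between diets, at 1.07, 1.85 and 2.94 in E16.5 controls, 3.11 and 2.64 in E16.5 HFD, 2.47 and 1.56 in E18.5 controls and 2.19 and 2.81 in E18.5 HFD. Th, the rate-limiting enzyme of catecholamine synthesis, was at 0.922, 0.683 and 2.28 CPM in E16.5 controls, 5.57 and 3.17 in E16.5 HFD, 2.22 and 0.823 in E18.5 controls and 1.69 and 2.60 in E18.5 HFD. HFD was higher without overlap at E16.5 only. Barhl1, a homeobox gene of these regions, overlapped on both days. With the mesenchyme score as a covariate the list median turned to -0.36. The part of such neighboring tissue in the neuronal lists was not tested.

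Cell cycle genes were lower by little. Of 22 tested genes 22 had a fitted log2 fold change below 0 (50.8% of all genes), with a median of -0.13. Rrm2, Ccna2 and Top2a had an unadjusted p under 0.05 (3.06% of all genes were lower at that threshold). Rrm2, a subunit of ribonucleotide reductase, was at 56.6, 47.7 and 66.9 CPM in E16.5 controls, 47.2 and 40.7 in E16.5 HFD, 21.9 and 20.0 in E18.5 controls and 15.6 and 16.3 in E18.5 HFD, without overlap and with a log2 fold change of -0.38 (SE 0.11, edgeR adjusted p = 0.639). Top2a, the topoisomerase of dividing cells, had -0.19 (SE 0.07). The list median lay between -0.17 and -0.05 when each library was left out, and it was -0.36 with E18.5 control replicate 1 added and -0.41 with the mesenchyme covariate.

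Of 27 genes of the unfolded protein and integrated stress response 23 were lower (50.8% of all genes), with medians of -0.18 at E16.5 and -0.01 at E18.5, and 0.069 over both days with the mesenchyme covariate. Hspa5, the main chaperone of the endoplasmic reticulum, was at 272, 275 and 269 CPM in E16.5 controls against 207 and 195, and at 261 and 217 in E18.5 controls against 229 and 258, so its lower level was seen at E16.5 and not at E18.5. The difference between the days was 0.47 on the log2 scale at an unadjusted edgeR p of 0.014, which did not pass adjustment. Calr, another chaperone gene, had a log2 fold change of -0.23 (SE 0.07) and no overlap on either day.

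Lists tied to fat handling and to growth signaling stayed near 0. Fatty acid uptake and oxidation had 16 of 35 genes higher and a median of -0.02, fatty acid synthesis and desaturation 12 of 22 and 0.02, cholesterol synthesis 12 of 23 and 0.002, and IGF, insulin and AKT signaling 15 of 30 and -0.01. Among the oxidation genes Cpt1b, a carnitine palmitoyltransferase, had an unadjusted p under 0.05. It was at 10.1, 13.8 and 12.7 CPM in E16.5 controls against 14.4 and 14.8, and at 14.2 and 13.8 in E18.5 controls against 17.4 and 18.7. HFD libraries were above the controls of their day, with a log2 fold change of 0.30 (SE 0.11). Elovl7, a fatty acid elongase gene, was lower (log2 fold change -1.12, SE 0.41) at under 2 CPM in every library. Igf2, an imprinted growth factor gene, had a log2 fold change of -0.42 (SE 0.17) with overlapping groups, Igfbp4, which binds such growth factors, -0.36 (SE 0.11), and Hmox1, heme oxygenase, -0.66 (SE 0.16), the last 2 without overlap.

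The study also followed proteins for proliferation, differentiation, cell death and signaling in this tissue, and their 16 transcripts showed log2 fold changes between -0.21 (S100b, an astrocyte gene, SE 0.36) and 0.07 (Tubb3, neuronal tubulin, SE 0.08). The smallest unadjusted p was 0.138, for the proliferation marker Mki67, by edgeR. Ezh2, the methyltransferase of Polycomb complex 2, was at 141, 147 and 162 CPM in E16.5 controls, 141 and 155 in E16.5 HFD, 87.2 and 92.1 in E18.5 controls and 85.2 and 100.5 in E18.5 HFD. The groups overlapped on both days and the log2 fold change was 0.02 (SE 0.08). Tbr1, a transcription factor of deep-layer neurons, was at 109 to 209 CPM in E16.5 controls and 154 and 144 in E16.5 HFD, with a fold change of 0.05 (SE 0.18). The others included Pcna, Pax6, Gfap, Olig2, Mbp, Parp1, Prkaa1 and Prkaa2, and all 16 had an edgeR adjusted p of 0.98 or more. A p that misses the threshold does not show equality, and transcript counts do not measure the proteins.

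**Figure D3:**
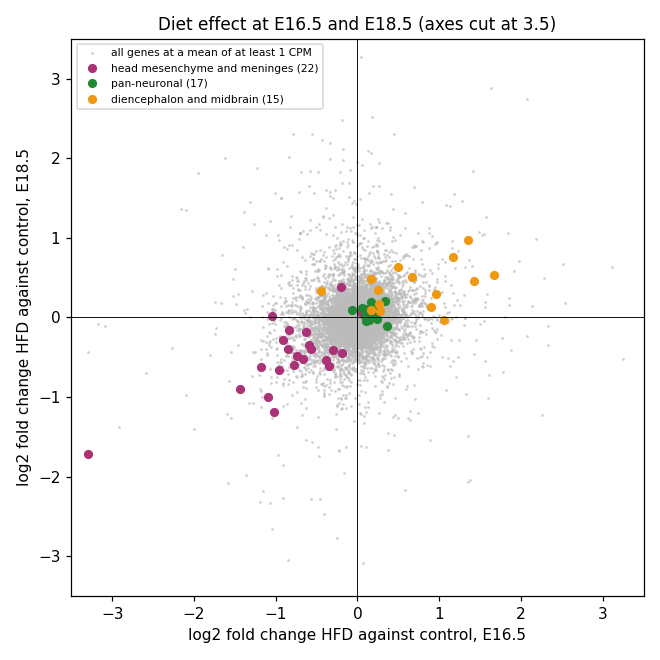
Log2 fold change of HFD against control at E16.5 (x axis) and at E18.5 (y axis), with 1 point per gene. Genes at a mean of at least 1 CPM are gray, 22 head mesenchyme and meninges genes purple, 17 pan-neuronal genes green and 15 diencephalon and midbrain genes orange. The purple points lie mostly in the lower left quadrant and the green ones close to the origin. Over the gray genes the Pearson r was -0.055, a value that a few extreme genes can set.

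Where the diet effect differed between E16.5 and E18.5, again no gene passed adjustment, with 108 genes higher (0.734%) and 111 lower (0.755%) at E18.5 at an unadjusted p under 0.05 by edgeR. limma-voom called 0 genes after adjustment and DESeq2 1. The gene that DESeq2 called was the histone gene Hist2h2aa2, which also had the smallest edgeR p. It was at 196, 186 and 347 CPM in E16.5 controls, 189 and 217 in E16.5 HFD, 58.2 and 80.0 in E18.5 controls and 3.72 and 2.49 in E18.5 HFD. The E18.5 HFD libraries were far below all others, and the difference of the effects was -4.24 (SE 0.51, edgeR adjusted p = 0.621), while DESeq2 gave an adjusted p of 1.90e-09. Histone genes of this cluster have near-identical copies, so its reads may be assigned to a copy differently from library to library, which was not tested. Ifi27, an interferon-inducible gene, was at 3.69 to 5.601 CPM in E16.5 controls and 3.96 and 5.45 in E16.5 HFD, but at 8.60 and 10.7 in E18.5 controls and 3.72 and 2.60 in E18.5 HFD. Dtx1, of the Notch pathway, and Dennd6b were higher with HFD at E16.5 and lower at E18.5, and Myo5c, Vwa5b1, Aasdh and Fcgr2a the reverse, with differences of 0.83 to 1.76 for the latter 4 genes. None of these 7 passed adjustment by edgeR or DESeq2. Y-linked transcripts, given below, were nearly absent from E16.5 HFD replicate 2 and from E18.5 control replicates 2 and 3. The sex make-up of the libraries therefore runs partly along with this contrast, and its part was not tested. Of 8 tested sex chromosome genes 6 had an unadjusted edgeR p under 0.05 for this difference. The Y-linked covariate described below was fitted only for the effect over both days.

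Set against E14.5, the later diet effect pointed the other way for the mesenchyme and meninges, pan-neuronal and diencephalon and midbrain lists. It did not for all lists that were lower later. Red blood cell genes had an E14.5 median of -0.24 with 9 of 13 lower. Cell cycle genes had one of -0.11 with 17 of 22 lower (51.8% of all genes). The difference between the E14.5 effect and the mean later effect, tested over 15354 genes in 14 libraries, had 0 genes at an edgeR adjusted p under 0.05, while an unadjusted p under 0.05 was reached by 736 genes upward (4.79%) and 637 downward (4.15%). limma-voom called 0 and DESeq2 89. Of the 22 mesenchyme and meninges genes 21 were higher with HFD at E14.5 (48.1% of all genes), with a median of 0.62, and the difference from the later stages was at an unadjusted p under 0.05 for 14, all in that direction. Pan-neuronal genes had an E14.5 median of -0.58 with 15 of 17 lower (51.8% of all genes), and diencephalon and midbrain genes one of -0.93 with 15 of 15 lower. Dcn was at 19.5, 24.4 and 18.8 CPM in E14.5 controls and 34.5 and 35.0 in E14.5 HFD, so its log2 fold change was 0.73 there and the difference from the later effect 1.63 (SE 0.27, edgeR adjusted p = 0.179). Dab2, an endocytic adaptor gene, and Col15a1 had differences of 1.40 and 1.35. Sertad4 was higher with HFD at E14.5 (0.63) and lower at E18.5 (-0.41). The latter value is for E18.5 alone, whereas the contrast averages over both later days. Its difference in that contrast lay between 0.75 and 0.93 when each library was left out in turn.

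Rfx4, a transcription factor of neural progenitors, had the smallest p of this contrast on the lower side. It was at 24.5, 26.7 and 24.4 CPM in E14.5 controls and 12.3 and 8.32 in E14.5 HFD, against 13.5, 13.8 and 16.4 in E16.5 controls, 16.47 and 17.4 in E16.5 HFD, 7.43 and 8.23 in E18.5 controls and 11.8 and 9.85 in E18.5 HFD. HFD libraries were lower at E14.5 and higher on both later days, and the difference was -1.63 (SE 0.22, edgeR adjusted p = 0.137). Ptprn2, Rhpn1 and Sall3 had differences of -1.21, -1.24 and -0.99. The counts of these contrasts depended on single E14.5 libraries: without E14.5 control replicate 1, 105 genes passed adjustment.

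**Figure D4:**
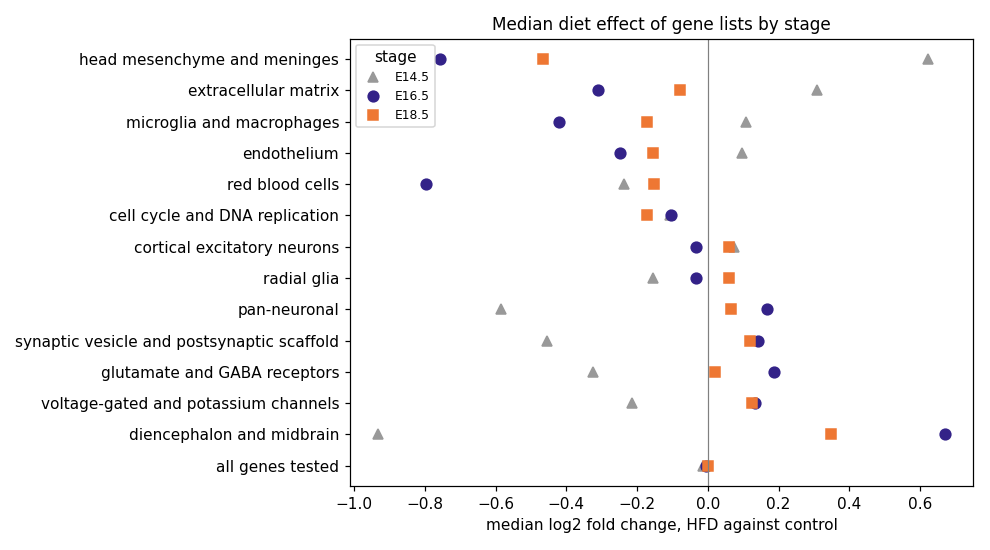
Median log2 fold change of HFD against control for 13 gene lists and for all genes tested, with gray triangles for E14.5, blue circles for E16.5 and orange squares for E18.5. For the mesenchyme, pan-neuronal, synaptic, receptor, channel and diencephalon and midbrain lists the E14.5 medians lie on the other side of 0 from those of both later days. Cortical excitatory neuron markers do not share this, with medians of 0.073 at E14.5, -0.033 at E16.5 and 0.058 at E18.5. Nor do radial glia genes, at -0.154, -0.033 and 0.060 in the same order. The red blood cell and cell cycle medians lie below 0 at every stage.

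Y-linked transcripts showed that libraries of a group did not have the same make-up. Kdm5d, which RefSeq places on chromosome Y, was at 67.9, 42.2 and 58.8 counts per 1000000 of the library total in E16.5 controls, 33.5 and 0.650 in E16.5 HFD, 0 and 3.21 in E18.5 controls and 18.2 and 71.0 in E18.5 HFD. The count of 0 in E18.5 control replicate 2 allows up to 0.399 CPM, the level of 3 counts. Eif2s3y, also on Y, was low in the same 3 libraries, with 0 counts in E18.5 control replicate 2 and 2 counts in E16.5 HFD replicate 2. At E14.5, HFD replicate 1 was at 0 for both genes. The near absence from 3 of the 9 libraries stands beside the description of each as a pooled litter, and it fell in HFD at E16.5 and in controls at E18.5. With the Y-linked score as a covariate, an alternative chosen after these values were seen, 0 genes passed adjustment, the unadjusted threshold was met by 336 genes upward and 458 downward, and the mesenchyme median stayed at -0.57.

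**Figure D5:**
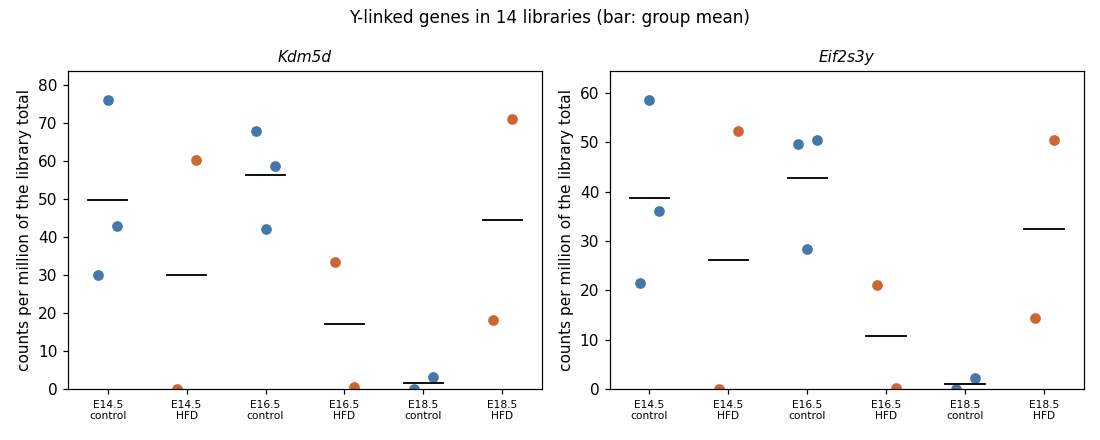
Counts per 1000000 of the library total for the Y-linked genes Kdm5d (left) and Eif2s3y (right) in 14 libraries, with 1 point per library and the bar at the group mean. E14.5 HFD replicate 1 and E18.5 control replicate 2 lie at 0.

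The remaining genes singled out by rank were loci without a settled identity. LOC100911917 was at 13.6, 9.84 and 9.001 CPM in E16.5 controls, 26.7 and 20.0 in E16.5 HFD, 5.603 and 8.34 in E18.5 controls and 17.2 and 19.7 in E18.5 HFD. It had the smallest p of all genes, with a log2 fold change of 1.25 (SE 0.16, edgeR adjusted p = 0.0824) and a DESeq2 adjusted p of 5.54e-07, and no overlap on either day. At E14.5 its log2 fold change was -0.13. Single loci named Metazoa_SRP and 7SK, after repeated small RNA families, were higher by 0.80 (SE 0.16) and 1.27 (SE 0.32). Reads of such families can be split among copies, and the family totals overlapped between diets on both days. All 7SK loci took 3.16, 1.77 and 2.12% of counts in E16.5 controls against 2.44 and 1.25% in HFD. At E18.5 they took 2.41 and 1.88% against 2.32 and 2.48%. All Metazoa_SRP loci took 2.74, 2.69 and 3.52% against 3.21 and 4.61% at E16.5, and 3.02 and 3.17% against 2.59 and 3.74% at E18.5.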

How the data were processed

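Whole-transcriptome libraries were prepared by the authors from ribosomal RNA-depleted frontal cortex and sequenced on 1 platform. The methods name RSEM for the estimated counts, whereas the submitters' processing notes list FastQC, Bowtie2, HTSeq and DESeq2 on build rn6, without versions. The deposited table held expected (estimated) counts per gene as whole numbers for 15 libraries and 32623 genes. They were rounded and left unscaled. Genes were kept by filterByExpr within the 4 groups, leaving 14709 (15354 for the contrast with E14.5 over 14 libraries). edgeR 4.0.16 in R 4.3.3 fitted stage and diet with TMM factors and robust quasi-likelihood dispersions (6 residual degrees of freedom), and p-values were adjusted over all genes tested. The biological coefficient of variation was 0.162, and counts of 5598195 to 9529978 per library limit precision for low genes. DESeq2 1.42.0 and limma 3.58.1 (voom) were alternatives, beside other normalizations, filters, a replicate block, score covariates and omission of each library. Replicates are described as litter pools, though Y-linked transcripts were nearly absent from some libraries, and p-values measure only the spread between libraries, which may be technical in part. The script for the fit was tested on simulated data with 1 common dispersion for all genes. That checks the code and does not measure power for the differences seen here.

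The comparison and the 60 gene lists (1326 genes, 1127 tested) were chosen with earlier results of these data known, so list counts and medians are descriptions without a test. Named genes were the 10 per direction with the smallest p among genes with a symbol, a mean level from 1 CPM up and no overlap within either stage, since none passed adjustment. The lack of overlap of these genes was therefore fixed by the choice. Up to 3 members per list at an unadjusted p under 0.05, the transcripts of proteins the study followed and up to 4 genes per direction for each contrast of effects were added, and not all of these are described, since some items are not reported here. LOC100911917, the genes called by DESeq2, Prrx1, Zic1, Spock1 and the Y-linked genes were chosen after their values were seen. Promoters came from RefSeq on GRCr8, matched by symbol.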

Additional observations from a re-analysis of the deposited data

How the results depend on the processing

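Counts of calls, medians of the lists described and the log2 fold changes of most genes given with a value were recomputed with one choice changed at a time, where the alternative kept the gene. No single-gene call of edgeR was there to be lost, and with TMM replaced by median-of-ratios or upper-quartile factors the recomputed list medians kept their sign, except that of IGF, insulin and AKT signaling (0.002 with median-of-ratios factors). For the diet effect over both later stages, the count of genes after adjustment was 0, but 13 with DESeq2, 5 without a filter, 1 with at least 10 counts in every library, 14 (11 of them lower, Col1a1 and Col3a1 included) with the replicate block and 3 with E18.5 libraries alone. Genes higher at an unadjusted p under 0.05 numbered 465 without a filter, 540 with the replicate block, 187 with E18.5 control replicate 1 added, 187 with E16.5 alone, 191 with E18.5 alone, 147 with 14 libraries in 1 fit and 162 with the head mesenchyme and meninges score as a covariate. Lower genes numbered 257 with DESeq2, 269 with E16.5 alone, 215 with E18.5 alone and 212 with that covariate. For the difference between E16.5 and E18.5, adjusted calls were 1 with DESeq2 and 2 with the replicate block, higher genes 66 with DESeq2, 70 with at least 10 counts and 61 with E18.5 control replicate 1 added, and lower genes 49 with DESeq2, 215 without a filter and 190 with the block. For the contrast with E14.5, 89 genes passed with DESeq2 and 1 (Rfx4) without a filter. The cause of these changes was not tested. With 1 library left out in turn, the later diet effect had 0 to 2 adjusted calls, 261 to 519 higher and 299 to 556 lower genes. The extremes were without E18.5 control replicate 2 (519) and E18.5 HFD replicate 1 (299), and 460 were higher without E16.5 HFD replicate 2. The difference between days had 0 to 2 calls, 83 to 338 higher and 100 to 276 lower genes, most without E16.5 HFD replicate 1. The contrast with E14.5 had 0 to 105 calls, 361 to 1099 higher genes and 216 to 1349 lower genes, where the lowest counts came without E14.5 HFD replicate 2 and the count of 1349 without E14.5 control replicate 2. Sign changes of single genes follow, while most list medians that moved stand beside their lists, apart from that of pericytes and smooth muscle with the replicate block (-0.36). With E16.5 alone Tbr1 was at -0.0078 and Ezh2 at -0.0085, and with E18.5 alone Tubb3 was at -0.029, Hspa5 at 0.030 and Olig2 at 0.055. With the interneuron covariate Ezh2 was at -0.015 and Olig2 at 0.034, and with E18.5 control replicate 1 added they were at -0.073 and 0.10. The mesenchyme covariate takes that list's own level out and did not overlap between diets on either day, so diet effects fitted beside it are poorly determined. With it 7SK was at -0.029, Barhl1 -0.037, Tbr1 -0.11, Tubb3 -0.11, Th -0.57, AABR07068316.1 0.050, Adamts12 0.14, Gjb2 0.15, Pdgfra 0.15, Kdr 0.16, Hspa5 0.16, Csf1r 0.18, Olig2 0.27, Igf2 0.45 and S100b 0.93. Leaving out single libraries, Tbr1 ranged from -0.036 to 0.21, Ezh2 from -0.025 to 0.064 and Olig2 from -0.14 to 0.067. With the replicate block Tbr1 was at -0.18. Same-numbered libraries of a day had residual correlations of 0.187 and 0.084 at E16.5 and -0.133 at E18.5, and across days from -0.143 to 0.178, so the numbers were not taken as pairs. Depth limits genes of a few CPM most, where single libraries hold few counts.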
